A study of Homo sapiens with 18 samples.

Results

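The 38 HOX genes examined here lie in 4 clusters, and chromatin accessibility at them was compared between 6 ovarian cancer cell lines. A window of the table was taken as a HOX window when it overlapped the GENCODE span of a member gene (build GRCh37, the same as hg19) widened by 5 kb on each side, so that 95 of 89428 windows entered. Of the 95 windows, 59 lay in the widened spans of more than 1 member and could not be assigned to a single gene. ATAC-seq, in which the Tn5 transposase inserts sequencing adapters into accessible DNA, had been run on 3 libraries of each line, 18 in all. The lines formed 3 pairs, each of a line sensitive to platinum and a resistant one, all grown in RPMI medium with glutamine and fetal bovine serum and, as far as the labels say, under no further treatment. A2780 (sensitive, labelled as endometrial/ovarian) was paired with CP70, a resistant derivative selected in vitro. PEA1 (sensitive) was paired with PEA2 (resistant) and PEO1 (sensitive) with PEO4 (resistant), each pair from 1 patient with high-grade serous ovarian cancer before and after resistance developed. Each condition is thus a single cell line, and no label says that the 3 libraries of a line came from separate cultures, so p-values measure the spread between libraries, which may be technical.

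HOX genes encode homeodomain transcription factors that give cells their position along the body axis. Within a cluster they stand in the order of their paralogue number, and in the embryo low-numbered (anterior) genes are switched on earlier and nearer to the head than high-numbered (posterior) genes. Silent HOX clusters are typically covered by Polycomb repression, and in the female reproductive tract the posterior HOXA genes mark successive segments of the Müllerian duct. Below, anterior means paralogues 1 to 3, central 4 to 8 and posterior 9 to 13, and a window takes the class of its nearest canonical transcript start.

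The libraries held 8972042 to 60495462 reads, recovered from the step between FPKM values. Summed over the windows of the table, reads came to 8.37% to 40.8% of these totals. A read in the overlap of 2 neighbouring windows can count in both. Because every window is 1 kb long, FPKM here equals RPM (reads scaled to the library total), and 1 read was worth 0.0165 FPKM in the deepest A2780 library and 0.111 FPKM in the shallowest PEO1 library. The median window of the table stood at 0.682 FPKM (A2780), 0.849 (CP70), 1.2 (PEA1), 1.78 (PEA2), 2.85 (PEO1) and 2.24 FPKM (PEO4), so levels were also expressed as the percentile of a window among all windows of the same line. The part of these differences in depth and share in the results below was not tested. Of 16 epithelial and Müllerian marker genes 14 had their start window in the table, with summed levels from 11.9 FPKM in A2780 to 116.0 FPKM in PEO4, and the median of the 14 from 0.868 FPKM in A2780 to 7.76 FPKM in PEO4. No start window of the 4 blood markers was in the table, nor one of the endothelial marker CDH5, and 3 of 9 fibroblast markers had one, among them VIM and COL1A2.

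The 250 bases before the canonical start of HOXD9 are shown because its start window had the widest range over the lines of any HOX start. Capitals mark the CCAAT box, which occurs 2 times (1 of them as ATTGG, its form on the opposite strand), and the palindrome CACGTG, an E-box. The sequence was read from GRCh37 at chr2:176987197-176987446 on the plus strand, 5′ to 3′ in the direction of the gene.
HOXD9: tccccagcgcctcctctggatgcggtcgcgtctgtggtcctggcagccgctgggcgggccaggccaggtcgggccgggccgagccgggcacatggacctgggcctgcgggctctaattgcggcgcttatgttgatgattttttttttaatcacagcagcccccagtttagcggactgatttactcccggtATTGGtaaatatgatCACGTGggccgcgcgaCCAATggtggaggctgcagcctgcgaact

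Over the 250 bases before the canonical start, CCAAT was found at 28 of 38 HOX genes (73.7%) against 34.3% of 19780 protein-coding promoters of the same length. CACGTG, searched after the HOX promoters had been read, was found at 17 (44.7%) against 7.89%. TAATTA, a core that homeodomains can bind, was found at 4 (10.5%) against 2.88%, and TGATNNAT, a form bound by PBX and HOX together, at 6 (15.8%) against 4.18%. TATAAA was found at 6 (15.8%) against 9.28%, and GGGCGG, the Sp1 box, at 17 (44.7%) against 59.2%. All motifs were searched on both strands, and a match describes letters in this window only.

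The longest run shared by 2 paralogues had a median of 9 bases over 40 pairs (range 7 to 19), and by 2 HOX genes of different number a median of 8 bases over 663 pairs (range 6 to 22). This comparison was chosen after the promoters had been read.

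The table held more of the clusters than of the genome. HOX windows made up 95 of the 525 grid windows in the widened spans (18.1%), against 2.6% of 3439652 grid windows over the genome. Every window of the table reached more than 2 FPKM in at least 2 libraries, so a window enters through whichever line opens it. The share was 27.4% for HOXB (40 of 146), 17.9% for HOXA (22 of 123), 12.9% for HOXC (18 of 139) and 12.8% for HOXD (15 of 117). Of the HOX windows 58.9% were CpG-rich (GC over 50% and an observed to expected CpG ratio over 0.6) against 23.3% of the table.

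Of the 38 genes 33 had at least 1 window. The exceptions were HOXA11, HOXB1, HOXC11, HOXC12 and HOXD4, whose widened spans held no window of the table. The window over the canonical start was present for 22 genes: HOXA4, HOXA5, HOXA6, HOXA7, HOXA10 and HOXA13, HOXB2, HOXB4, HOXB5, HOXB7, HOXB9 and HOXB13, HOXC4, HOXC5, HOXC9, HOXC10 and HOXC13, and HOXD1, HOXD8, HOXD9, HOXD11 and HOXD13. The other 11 genes, HOXA2, HOXA3, HOXA9, HOXB3, HOXB6, HOXB8, HOXC6, HOXC8, HOXD3, HOXD10 and HOXD12, had windows elsewhere in the widened span only. HOXB3, whose span is 56.0 kb long, had 28 of 74 possible windows, and HOXC13 had 1 of 21.

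**Figure D1:**
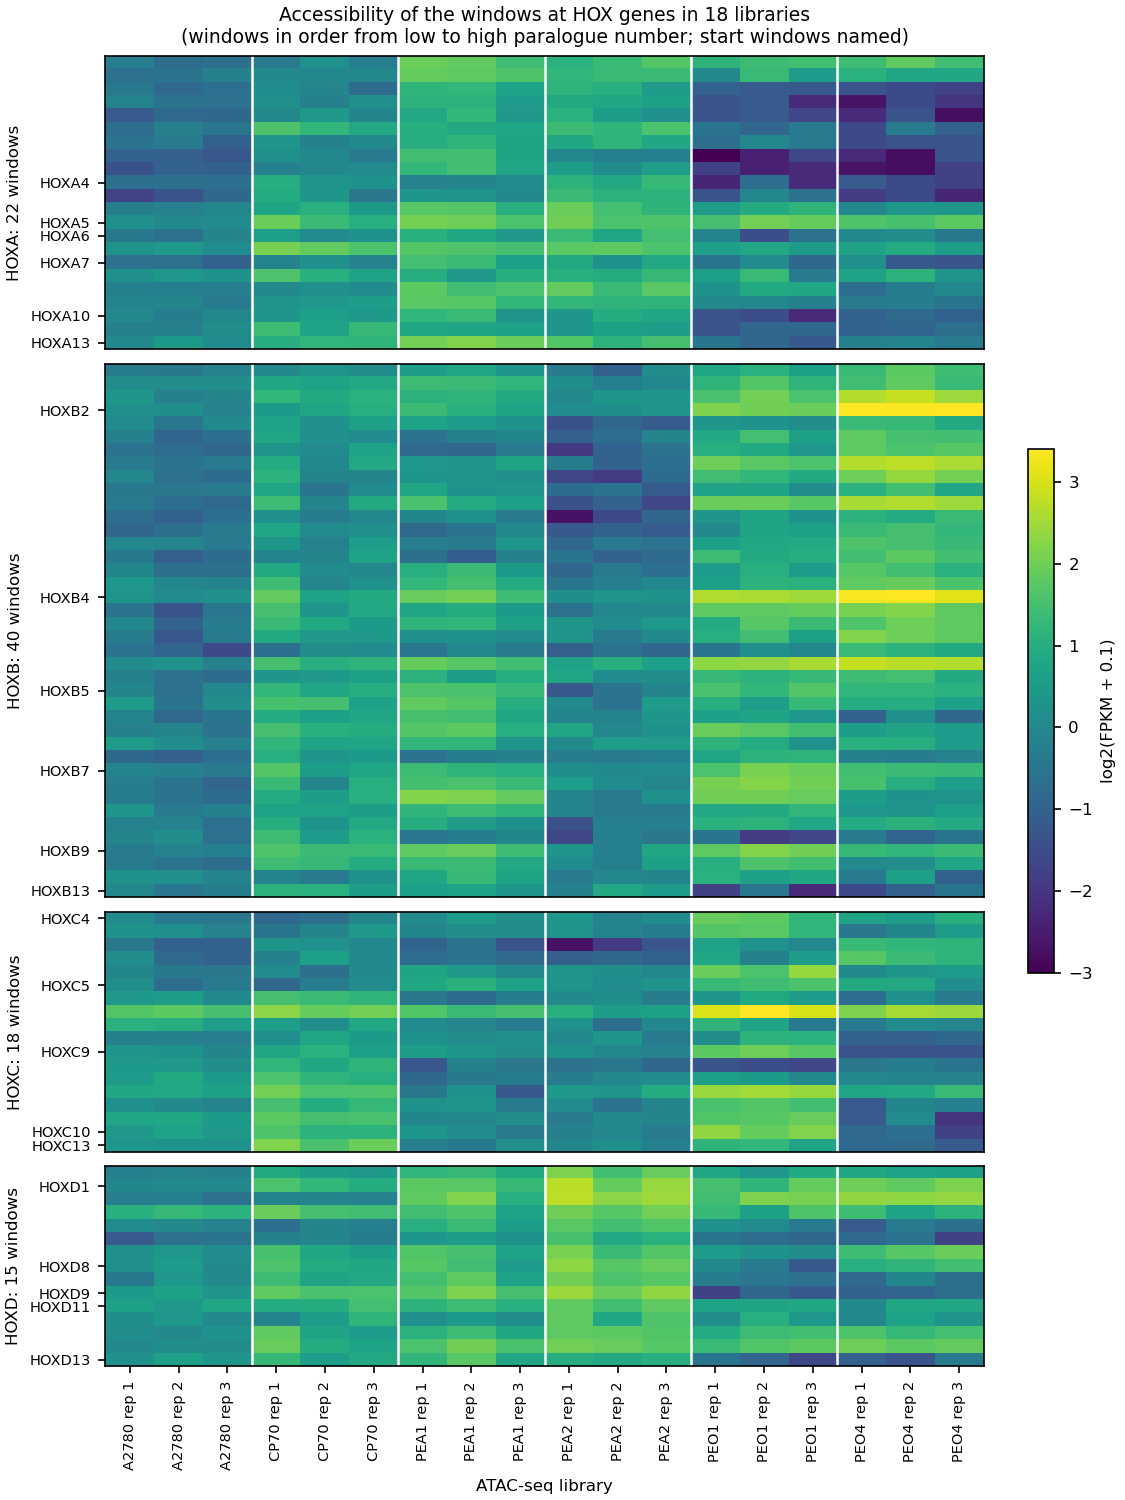
Heatmap of the 95 HOX windows (rows, in 1 panel per cluster and from low to high paralogue number) in the 18 libraries (columns), with colour giving log2(FPKM + 0.1). HOXB windows are brightest in PEO1 and PEO4 and dim in A2780 and PEA2, and 8 of the 9 posterior HOXC windows are brighter in PEO1 than in PEO4.

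The lines differed in which cluster was accessible. By FPKM, HOXB was most accessible in PEO4, HOXC in PEO1, HOXD in PEA2 and HOXA in PEA1. The windows with their highest line mean there were 24 of 40, 11 of 18, 14 of 15 and 13 of 22, in the same order. These counts were not compared with those of all table windows, whose median FPKM was highest in PEO1 and PEO4. By median percentile within the line, HOXB and HOXC were instead highest in CP70 (67.5 and 73.6). HOXD and HOXA were highest in the same lines by either measure. A2780 had the lowest mean in 31 of the 95 windows and the highest in 1. Over the 95 windows the mean level was 0.856 ± 0.0603 FPKM (SD, n = 3 libraries, as for the values that follow) in A2780, 1.55 ± 0.134 in PEA2, 1.67 ± 0.263 in CP70, 1.86 ± 0.28 in PEA1, 2.0 ± 0.114 in PEO1 and 2.0 ± 0.0973 in PEO4.

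Ranked among all windows of the same line, the order was different, with CP70 and PEA1 at the top and the PEO lines at the bottom. The median percentile of the 95 windows was 68.1 ± 1.58 in CP70, 66.3 ± 1.69 in PEA1, 56.3 ± 1.13 in A2780, 35.0 ± 2.12 in PEO4, 29.8 ± 1.72 in PEA2 and 28.0 ± 1.46 in PEO1. CP70 and PEA1, and PEA2 and PEO1, were neighbours in this order whose libraries overlapped. CpG-rich HOX windows had a lower median percentile than the CpG-rich windows of the whole table in every line: 71.8 against 84.2 in CP70, 70.5 against 82.1 in PEA1, 57.7 against 84.3 in A2780, 36.6 against 81.9 in PEO4, 36.2 against 66.8 in PEA2 and 31.8 against 78.0 in PEO1. These percentiles describe the lines and were not tested.

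By cluster, HOXA stood at the median percentile of 70.4 ± 2.43 in PEA1 and 59.6 ± 3.5 in PEA2 but 11 ± 0.932 in PEO1 and 10.2 ± 1.81 in PEO4. The table windows within 1 Mb of HOXA stood at 37 in PEO1 and 35.4 in PEO4. HOXB ranged from 19.1 ± 2.47 in PEA2 to 67.5 ± 3.95 in CP70, and the windows within 1 Mb of it stood at 30.5 in PEA2 against 71.6 in PEA1. HOXC ranged from 18.4 ± 3.73 in PEO4 and 22.8 ± 2.2 in PEA2 to 73.6 ± 2.06 in CP70, while the windows within 1 Mb of it stood at 67.0 in PEO4 and 36.6 in PEA2. HOXD ranged from 21.0 ± 1.0 in PEO1 to 83.5 ± 1.43 in PEA2, the highest of all cluster medians.

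**Figure D2:**
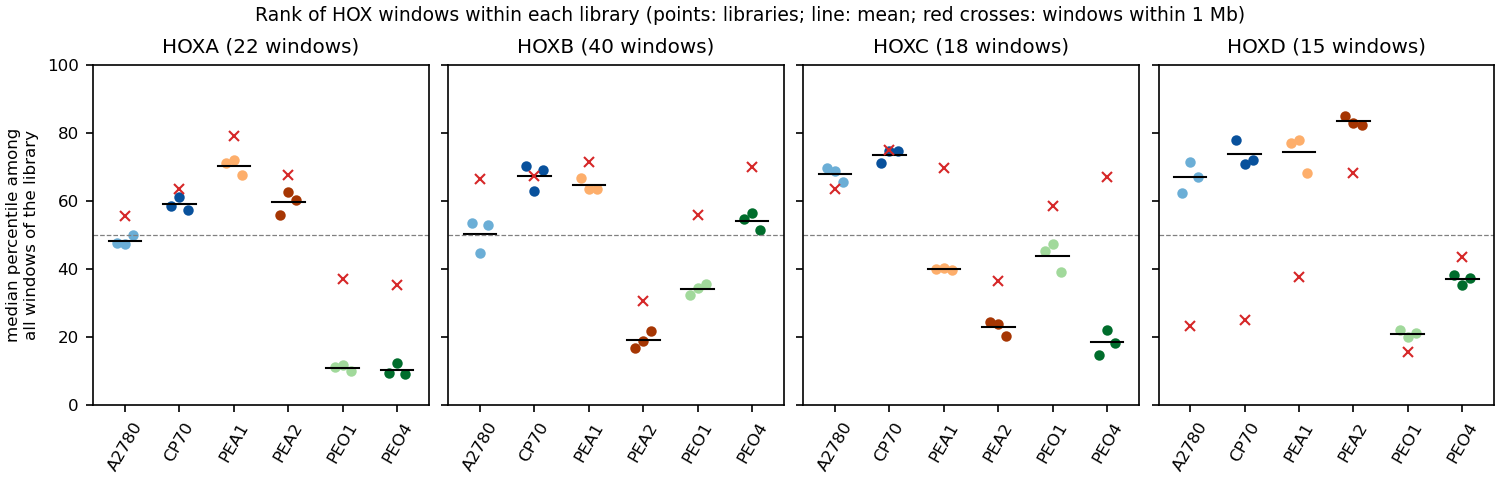
Median percentile of the windows of each HOX cluster among all 89428 windows of the same library, by line, with 1 point per library, a bar at the mean and a red cross for the windows within 1 Mb outside the cluster. HOXA lies at 11 in PEO1 and 10.2 in PEO4, and HOXD reaches 83.5 in PEA2.

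Of 22 start windows, 0 were above 2 FPKM in all 3 libraries of A2780, 4 of CP70, 7 of PEA1, 6 of PEA2, 11 of PEO1 and 7 of PEO4. The share of all table windows above this level was 9.3%, 17.4%, 22.6%, 32.3%, 58.9% and 48.6% in the same order of lines. After quantile normalization of the libraries the numbers became 10, 16, 14, 6, 2 and 3, so the order of the lines turned and a count of open starts at a fixed level does not rank them. HOXA5 and HOXD1 were above 2 FPKM in all libraries of PEA1, PEA2, PEO1 and PEO4. HOXB2, HOXB4, HOXB5, HOXB7 and HOXB9 were above it in both PEO lines, HOXA13 and HOXD9 in both PEA lines, and HOXC4, HOXC5, HOXC9 and HOXC10 in PEO1, with HOXC10 also in CP70.

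The changes within pairs were tested with limma on log2(FPKM + 0.1), a scale that understates the fold change of low windows, over all windows whose mean exceeded 1 FPKM in the 6 libraries of the pair. Calls needed a log2 fold change over 2 in size and an adjusted p below 0.001, and a wider rule took changes over 1 with an adjusted p below 0.05. All fold changes are resistant minus sensitive line. The median log2 fold change of all tested windows was 0.59 for A2780 and CP70, 0.31 for PEA1 and PEA2 and -0.30 for PEO1 and PEO4, and the HOX changes below are to be read beside these shifts. A window that passed the filter only because 1 line was high had to differ, so the counts describe the tested windows and not all members.

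CP70 had the higher mean of log2 values at 89 of the 95 HOX windows, against a background of 68.1% of all windows. In the A2780 pair 58 of 95 windows were tested, and 0 were called higher (background 0.428% of all windows tested) or lower (0.369%), although 52 were higher at an unadjusted limma p below 0.05 (background 56.4%) and 0 lower (2.7%), and edgeR on the recovered reads called 0 as well. By the wider rule 27 (46.6%) were higher in CP70 against a background of 11.4%, and 0 were lower against 1.1%. With every library centred on its median, 5 (8.62%) were higher against 1.38% and 0 lower against 3.41%, an alternative chosen after the data had been seen. Cluster medians were 0.94 for HOXA, 1.18 for HOXB, 0.74 for HOXC and 0.84 for HOXD, and 0.36, 0.60, 0.17 and 0.26 after centring. The windows within 1 Mb rose as well, at medians of 0.72 beside HOXA, 0.72 beside HOXB, 0.82 beside HOXC and 0.71 beside HOXD. When the median change of each 5 Mb bin was removed, the cluster medians became 0.31, 0.46, -0.01 and 0.12 in the same order. The CP70 library with the highest mean at HOX windows was replicate 1, at 1.97 FPKM against 1.49 and 1.56. Its reads summed over the table windows also came to the largest share of the library total, 15.6% against 11.8% in both others.

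In the PEA pair HOXB was lower in PEA2, and HOXD was higher by less. Of 69 tested windows 3 (4.35%) were called lower in PEA2 against a background of 1.42%, all in HOXB, and 0 were called higher against 11.2% (15 were higher at an unadjusted p below 0.05 against 44.4%, and edgeR called 0 higher). By the wider rule 18 (26.1%) were lower against 9.27% and 3 (4.35%) higher against 29.7%, and after median centring 26 (37.7%) were lower against 18% and 0 higher against 21.6%. The median was -1.19 for HOXB with 24 of 26 tested windows lower at an adjusted p below 0.05 (background 21.4%), and 0.65 for HOXD with 10 of 15 higher (background 43%). HOXA had a median of -0.14 and HOXC of -0.29 with 6 windows tested. The windows within 1 Mb moved in the same direction, at a median of -1.07 beside HOXB and 1.17 beside HOXD, and when the median change of each 5 Mb bin was removed the HOXB median became -0.10, the HOXD median -0.13 and no HOX window was called. The mesenchymal marker VIM was called lower in PEA2 as well, from 10.2 to 1.6 FPKM (-2.58). COL1A2 stood at 0.417 FPKM in PEA1 and 1.12 FPKM in PEA2, too low for the test. Of 13 tested epithelial and Müllerian markers 2 were higher in PEA2 by the wider rule, CDH1 (1.21) and WT1 (1.09). By the same rule 1 was lower, MSLN (-1.13). The summed level of the 3 fibroblast markers was 16.4 FPKM in PEA1 and 5.97 FPKM in PEA2, and that of the 14 epithelial and Müllerian markers 23.1 and 28.7 FPKM, and their part in the HOX results was not tested.

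In the PEO pair 7 of 8 tested posterior HOXC windows were lower in PEO4 at an adjusted p below 0.05 (background 45.8%). HOXB split along its length in this pair. The 9 posterior HOXC windows averaged 2.72 FPKM in PEO1 and 0.674 FPKM in PEO4. The filter on the pair mean thus favoured windows high in PEO1, and the direction of the HOXC count is not independent of it. The ninth posterior HOXC window, chr12:54390601-54391600, was too low for the test and went the other way without overlap, from 0.263 ± 0.0403 FPKM in PEO1 to 0.652 ± 0.0621 FPKM in PEO4. Of 72 tested windows 4 (5.56%) were called lower in PEO4 against a background of 5.78%, all posterior HOXC, and 0 were called higher against 2.72% (27 were higher at an unadjusted p below 0.05 against 22.8%, and edgeR called 1 higher, the HOXD8 start window). By the wider rule 16 (22.2%) were lower against 23.6% and 5 (6.94%) higher against 9.63%, so neither share stood above the background. After median centring 10 (13.9%) were lower against 15.1% and 20 (27.8%) higher against 15%. The HOXC median was -1.45 with 13 of 17 tested windows lower at an adjusted p below 0.05 (background 45.8%), while the windows within 1 Mb of HOXC had a median of 0.17, and with bin medians removed the HOXC median was -1.62.

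Along HOXB the PEO change turned from higher to lower with paralogue number. All 16 anterior windows had a positive log2 fold change, from 0.04 to 1.36 with a median of 0.78, and 14 of them were higher in PEO4 at an adjusted p below 0.05 (background 21.9%). Of 19 tested central windows 7 were higher and 6 lower at that level (backgrounds 21.9% and 45.8%). Their median was -0.03, and became 0.32 with median centring and 0.37 with quantile normalization. Of 3 tested posterior windows 3 were lower at that level (background 45.8%), with a median of -1.05. The windows within 1 Mb of HOXB had a median of 0.48 in this pair, the same as the tested HOXB windows together. The anterior median stayed positive (0.71 to 1.13) and the posterior median negative (-1.12 to -0.62) under median centring, quantile normalization and removal of bin medians. Neighbouring windows share bases and reads, and this split was noticed in the data and not tested as such.

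**Figure D3:**
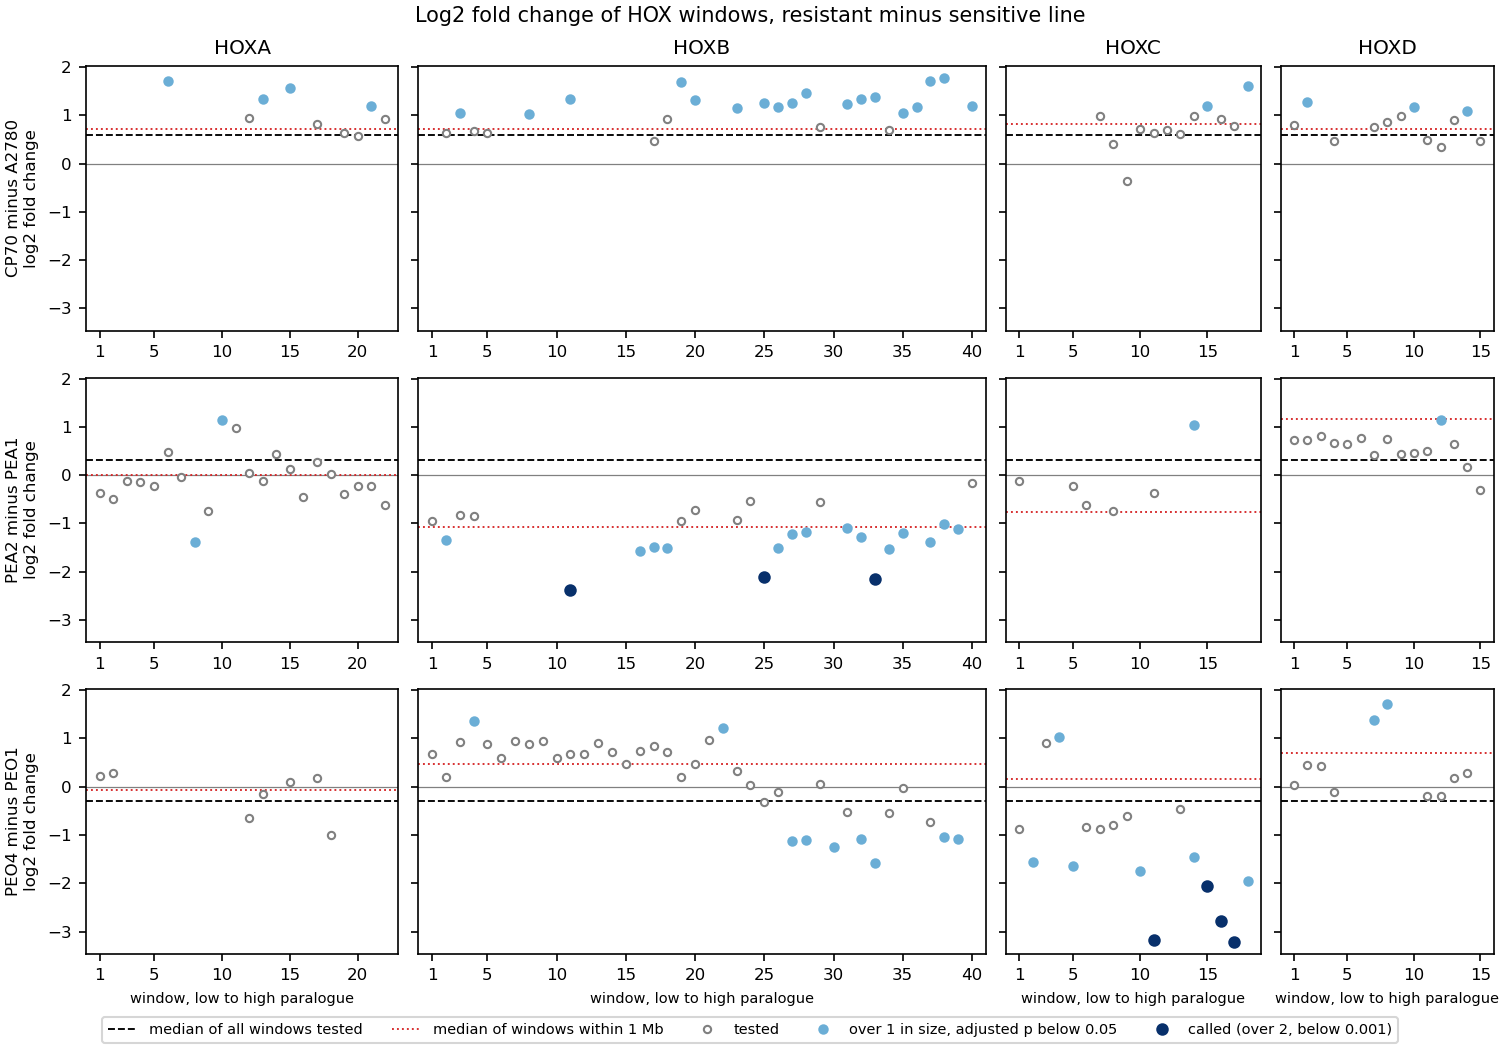
Log2 fold change (resistant minus sensitive line, log2(FPKM + 0.1) scale) of each tested HOX window, in order from low to high paralogue number within each cluster (columns of panels), for the 3 pairs (rows), with dashed lines at the median of all windows tested and dotted red lines at the median within 1 Mb. HOXB lies below 0 throughout in the PEA pair and crosses from above to below 0 in the PEO pair, where the 4 called windows are all posterior HOXC.

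HOXC10, a posterior gene that acts in the lumbar region and the hindlimb, showed the largest change of any HOX window tested within a pair on the log2(FPKM + 0.1) scale, though by the ratio of means (0.0918) HOXC9 fell further (0.0843). At its start window (chr12:54378001-54379000, which also holds the start of the antisense HOXC-AS3) PEO1 had 4.96, 3.58 and 4.46 FPKM and PEO4 had 0.465, 0.528 and 0.199 FPKM, the latter from 8, 11 and 4 reads. The 2 lines did not overlap, and the mean went from 4.33 ± 0.699 to 0.397 ± 0.174 FPKM (log2 fold change -3.21, SE 0.284, adjusted p 2.47e-12, called). A2780 had 1.27, 1.51 and 1.26 FPKM and CP70 had 3.03, 2.1 and 2.09 FPKM, higher in every CP70 library (0.78, adjusted p 0.00854). The PEA lines were low and overlapped, with 1.19, 0.966 and 0.671 FPKM in PEA1 and 0.769, 0.867 and 0.666 FPKM in PEA2, too low for the test. The neighbouring window over the first HOXC10 exon, which shares bases with it, was called too, at -2.79 (adjusted p 4.64e-09).

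HOXC9, which acts in the motor neurons of the thoracic cord, followed the same pattern between the PEO lines. Its start window (chr12:54393301-54394300, also the start of HOXC-AS1) had 3.34, 3.84 and 3.23 FPKM in PEO1 and 0.291, 0.288 and 0.299 FPKM in PEO4, from 5, 6 and 6 reads. The lines did not overlap, at means of 3.47 ± 0.324 and 0.293 ± 0.00569 FPKM (-3.18, SE 0.292, adjusted p 6.35e-12, called), and the PEO4 mean ranked at the 4.44 percentile of its line. A2780 had 1.2, 1.13 and 0.843 FPKM, CP70 1.67, 2.04 and 1.42 FPKM, PEA1 1.41, 1.21 and 1.01 FPKM and PEA2 1.1, 0.867 and 0.799 FPKM. CP70 lay above A2780 without overlap (0.64, adjusted p 0.0291), and the PEA lines overlapped (-0.36, adjusted p 0.252).

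The fourth called window, chr12:54387901-54388900, lies upstream of the canonical HOXC9 start and outside the canonical exons of HOX genes. The annotated HOXC9 span begins inside this window, at 54388679. It had a mean of 2.88 ± 0.237 FPKM in PEO1 and 0.653 ± 0.27 FPKM in PEO4 (-2.06, adjusted p 5.31e-08), and it was no longer called without PEO1 replicate 2 (-2.00) or PEO4 replicate 1 (-1.72), by edgeR (-1.79), with median centring or quantile normalization (both -1.71), or with a pseudocount of 0.5 (-1.58) or 1 (-1.24). HOXC13, active in hair follicles and nails, had 1.98 ± 0.374 FPKM in PEO1 and 0.431 ± 0.0719 FPKM in PEO4 at its start (-1.96, adjusted p 1.45e-06, just short of the fold for a call) and was highest in CP70 at 3.7 ± 0.8 FPKM (1.60 against A2780, adjusted p 4.35e-08). The starts of the central genes HOXC4 and HOXC5 were also highest in PEO1, at 3.09 and 2.65 FPKM, against 1.63 and 1.49 FPKM in PEO4 (-0.87 and -0.83, adjusted p 0.000677 and 0.00181). The most accessible HOXC window in all 6 lines, named after its values were seen, was chr12:54411301-54412300, between the end of HOXC8 and the canonical start of HOXC6. It lies inside the annotated spans of HOXC4, which begins at 54410715, and HOXC6. Its level was 8.98 ± 1.59 FPKM in PEO1 and 5.12 ± 0.69 FPKM in PEO4 (-0.79, adjusted p 7.23e-06).

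HOXB2, which sets up hindbrain segments, had the highest line mean of any HOX start window. Its start window (chr17:46621801-46622800) had 10.6, 10.1 and 10.7 FPKM in PEO4 and 4.35, 3.93 and 3.79 FPKM in PEO1, without overlap (1.36, SE 0.133, adjusted p 3.14e-11). PEA1 had 2.47, 1.99 and 1.58 FPKM and PEA2 0.989, 1.04 and 1.15 FPKM, a change in the other direction (-0.85, adjusted p 0.00151). A2780 had 1.06, 1.04 and 0.793 FPKM and CP70 1.29, 1.62 and 1.93 FPKM (0.68, adjusted p 0.0249). All 3 pairs were without overlap at this window.

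A window in an exon of HOXB3, another hindbrain gene, carried the largest change of the HOX windows tested in the PEA pair. It lies at chr17:46632601-46633600, 10630 bases upstream of the HOXB2 start, and had 2.85, 1.81 and 1.44 FPKM in PEA1 and 0.275, 0.405 and 0.222 FPKM in PEA2, without overlap (-2.38, SE 0.31, adjusted p 1.31e-13, called). The PEO lines were both higher than the PEA lines and moved the other way, with 3.74, 3.75 and 3.23 FPKM in PEO1 and 5.81, 6.14 and 5.38 FPKM in PEO4 (0.68, adjusted p 0.000171). A2780 had 0.663, 0.518 and 0.479 FPKM and CP70 2.5, 0.838 and 1.76 FPKM, a wide spread in which every CP70 library was still above A2780 (1.35, SE 0.297). Without PEA1 replicate 1 the PEA mean fell under the filter and the window was not tested.

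HOXB4, a regulator of blood stem cells, had 10.0, 10.3 and 8.57 FPKM in PEO4 and 6.17, 5.93 and 5.46 FPKM in PEO1 at its start window (chr17:46655101-46656100). PEO4 was higher without overlap (0.71, SE 0.129, adjusted p 1.02e-05). PEA1 had 3.65, 3.99 and 2.54 FPKM and PEA2 1.04, 1.16 and 1.11 FPKM, lower in PEA2 without overlap (-1.51, SE 0.237, adjusted p 8.71e-10). A2780 had 1.15, 0.969 and 1.07 FPKM and CP70 3.56, 1.5 and 1.76 FPKM (0.93, adjusted p 0.00163).

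HOXB5, a gene of enteric neuron precursors, was the only start window called in the PEA pair. At chr17:46670401-46671400 PEA1 had 2.95, 2.83 and 2.3 FPKM and PEA2 0.33, 0.578 and 0.843 FPKM, without overlap (-2.10, SE 0.261, adjusted p 9.31e-15, called). The call was lost without PEA2 replicate 1 (-1.80). PEO1 had 2.83, 2.27 and 3.12 FPKM and PEO4 2.21, 2.21 and 2.04 FPKM, without overlap but with no change past the test (-0.32, adjusted p 0.147). A2780 had 0.837, 0.563 and 0.876 FPKM and CP70 2.27, 1.62 and 1.88 FPKM, higher in CP70 (1.25, adjusted p 4.58e-05).

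The third called window of the PEA pair lies in an exon of HOXB8 (chr17:46689301-46690300), 1422 bases upstream of the start of HOXB7, both central genes. PEA1 had 4.55, 4.3 and 3.55 FPKM and PEA2 0.824, 0.694 and 1.06 FPKM (-2.15, SE 0.238, adjusted p 2.32e-18, called), and PEO1 had 3.95, 3.93 and 3.68 FPKM and PEO4 1.4, 1.1 and 1.15 FPKM (-1.59, adjusted p 1.77e-08). Both resistant lines of patient origin were thus lower here, while CP70 with 1.82, 1.38 and 1.97 FPKM stood above A2780 with 0.715, 0.586 and 0.496 FPKM (1.38, SE 0.284). The start windows of HOXB7 and HOXB9 behaved alike in the PEA pair (-1.09 and -1.38) and were higher in CP70 (1.23 and 1.71), all by the wider rule. HOXB13, the most posterior HOXB gene and a prostate regulator, was instead highest in CP70 (1.82 FPKM) and lowest in PEO1 (0.308 FPKM).

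**Figure D4:**
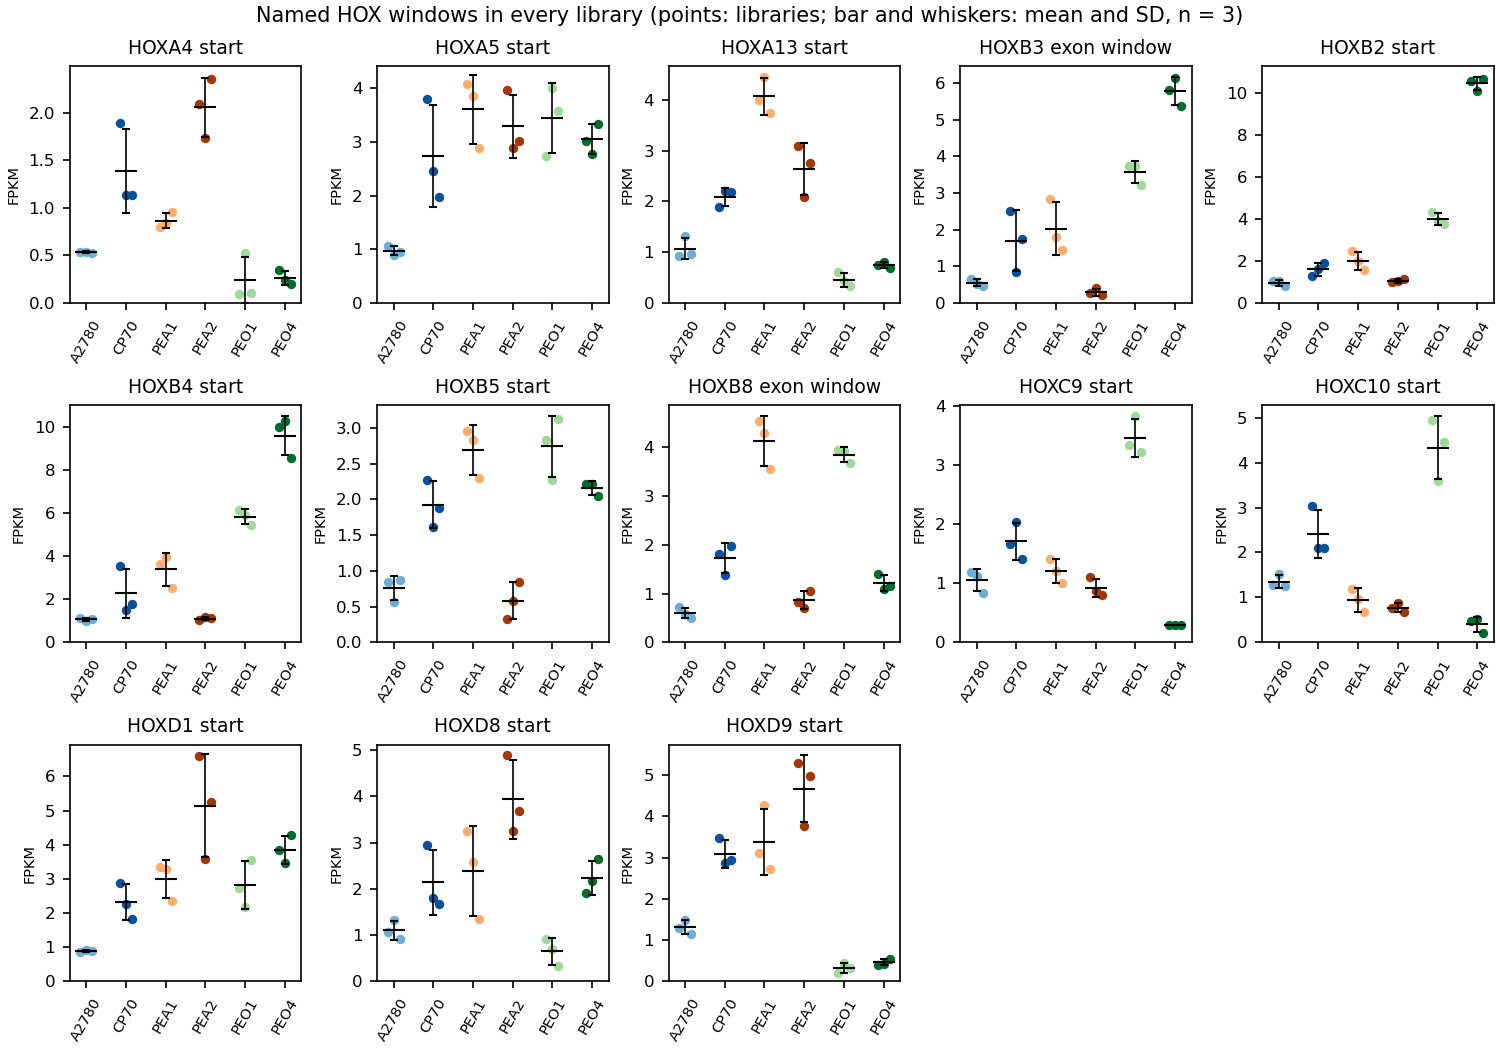
FPKM (linear axis from 0) in the 18 libraries at the 13 windows described in full, 1 panel per window, with 1 point per library, a bar at the mean of each line and whiskers of 1 SD. HOXB2 and HOXB4 are highest in PEO4, HOXC9 and HOXC10 are highest in PEO1 and lowest in PEO4, and HOXD9 is lowest in both PEO lines.

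HOXD9, which acts in the limb and the lumbar region, had the widest range of any HOX start over the 6 lines, 3.51 on the log2 scale. Its start window (chr2:176986801-176987800) had 3.11, 4.27 and 2.73 FPKM in PEA1 and 5.28, 3.76 and 4.97 FPKM in PEA2, but 0.202, 0.436 and 0.334 FPKM in PEO1, from 2, 5 and 3 reads, and 0.407, 0.432 and 0.548 FPKM in PEO4. All 6 PEA libraries were above all 6 PEO libraries, and within the PEA pair the libraries overlapped (0.47, adjusted p 0.06). A2780 had 1.29, 1.49 and 1.16 FPKM and CP70 3.48, 2.87 and 2.93 FPKM (1.18, SE 0.258, adjusted p 8.12e-05). The PEO pair was too low for the test.

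HOXD8, its central neighbour, was the only HOXD start that differed in the PEO pair by the wider rule. At chr2:176994001-176995000 PEO1 had 0.911, 0.698 and 0.334 FPKM, from 9, 8 and 3 reads, and PEO4 1.92, 2.16 and 2.64 FPKM. The lines did not overlap (1.72, SE 0.304, adjusted p 5.89e-06), and the change passed 2 with median centring (2.06) and edgeR (2.07). The windows within 1 Mb of HOXD had a median of 0.69 in this pair. With bin medians removed, the median of the 3 tested central HOXD windows went from 1.38 to 0.73. PEA1 had 3.24, 2.59 and 1.34 FPKM and PEA2 4.89, 3.24 and 3.68 FPKM, with the lowest PEA2 library at the level of the highest PEA1 library (0.76, adjusted p 0.0018). A2780 had 1.06, 1.33 and 0.926 FPKM and CP70 2.95, 1.8 and 1.68 FPKM (0.86, adjusted p 0.00338).

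HOXD1, the anterior end of the cluster, was accessible in more lines. Its start window (chr2:177052501-177053500, also the start of the long RNA HAGLR) had 6.59, 3.58 and 5.24 FPKM in PEA2, 3.36, 3.3 and 2.35 FPKM in PEA1, 2.73, 2.18 and 3.57 FPKM in PEO1 and 3.84, 3.46 and 4.28 FPKM in PEO4. PEA2 was above PEA1 without overlap (0.73, adjusted p 0.00269), and the PEO lines overlapped (0.46, adjusted p 0.0269). CP70 had 2.88, 2.27 and 1.84 FPKM against 0.854, 0.924 and 0.893 FPKM in A2780 (1.27, adjusted p 1.18e-05). HOXD11 had the narrowest range of the HOXD starts, with line means from 1.42 FPKM in PEO4 to 3.18 FPKM in PEA2, and HOXD13, the digit gene, went from 0.422 FPKM in PEO1 to 2.37 FPKM in PEA1.

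HOXA4 was the only HOX start that was higher in PEA2 by the wider rule. At chr7:27170101-27171100 PEA2 had 2.09, 1.73 and 2.35 FPKM and PEA1 0.801, 0.841 and 0.959 FPKM, without overlap (1.15, SE 0.256, adjusted p 1.9e-05). The other pairs were under the filter, with 0.541, 0.541 and 0.529 FPKM in A2780, 1.89, 1.14 and 1.13 FPKM in CP70, 0.101, 0.524 and 0.111 FPKM in PEO1, from 1, 6 and 1 reads, and 0.349, 0.24 and 0.199 FPKM in PEO4. CP70 was still above A2780 in every library, and the PEO lines overlapped.

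HOXA5, a gene of lung and thoracic development, was the most accessible HOXA start by the mean over the 6 lines, with 2.74 to 3.60 FPKM in 5 of them, although HOXA13 was higher in PEA1 (4.07 FPKM) and A2780 (1.07 FPKM). Its start window (chr7:27182701-27183700) had 4.07, 3.86 and 2.88 FPKM in PEA1, 3.96, 2.89 and 3.02 FPKM in PEA2, 2.73, 4.01 and 3.57 FPKM in PEO1, 3.02, 2.78 and 3.34 FPKM in PEO4 and 3.79, 2.45 and 1.97 FPKM in CP70. A2780 was the exception with 1.06, 0.901 and 0.959 FPKM (CP70 minus A2780 1.35, SE 0.251, adjusted p 2.54e-06). Neither the PEA pair (-0.13, SE 0.228, adjusted p 0.641) nor the PEO pair (-0.15, SE 0.18, adjusted p 0.456) passed the test. At its paralogue HOXB5 the PEA change was -2.10.

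HOXA13, the gene of the distal Müllerian duct and the digits, separated the PEA from the PEO lines. Its start window (chr7:27239401-27240400, also the start of the long RNA HOTTIP) had 4.0, 4.45 and 3.74 FPKM in PEA1, 3.08, 2.08 and 2.75 FPKM in PEA2, 0.607, 0.436 and 0.334 FPKM in PEO1 and 0.756, 0.816 and 0.697 FPKM in PEO4. PEA2 was below PEA1 without overlap (-0.62, adjusted p 0.0116), and PEO4 was above PEO1 without overlap at a level under the filter. A2780 had 0.924, 1.31 and 0.975 FPKM and CP70 1.89, 2.21 and 2.18 FPKM (0.92, adjusted p 0.00182). HOXA10, the uterine segment gene, had the same order of extremes, from 0.226 FPKM in PEO1 to 1.91 FPKM in PEA1, and so had HOXD13.

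Whether HOX windows changed differently in 2 pairs was tested by the difference of the log2 changes over 12 libraries. Of 75 windows tested 18 (24.0%) changed differently in the A2780 and PEA pairs against a background of 12.8%, all with the more positive change in the A2780 pair, and 17 of them lay in HOXB. Between the A2780 and PEO pairs 14 of 75 (18.7%) differed against 8.12%, again all more positive in the A2780 pair, 7 in HOXB and 7 in HOXC. Between the PEA and PEO pairs 15 of 83 (18.1%) differed against 26.6%, 9 in HOXB, 5 in HOXC and 1 in HOXA. Of these 15, 6 had the more positive change in the PEA and 9 in the PEO pair, and after median centring the split became 2 and 24, so that 26 (31.3%) differed against a background of 24.5%. Over all windows called, 2873 were more positive in the A2780 and 4451 in the PEA pair. For the A2780 and PEO pairs the split was 4545 and 1335, and for the PEA and PEO pairs 17964 and 3727. After median centring 15 HOX windows differed between the A2780 and PEA pairs and 8 between the A2780 and PEO pairs. All were again more positive in the A2780 pair. Over all windows the centred splits were 1770 and 5587 for the A2780 and PEA pairs. For the A2780 and PEO pairs they were 1370 and 3176. The A2780 pair is shared by the first 2 of these comparisons.

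The named windows were picked by their calls, range or level in these same libraries. That choice favours large differences between pairs, so those below describe the windows and are no independent test. For HOXC10 the A2780 change exceeded the PEO change by 3.99 (SE 0.354, adjusted p 8.79e-11), and for HOXC9 by 3.83 (SE 0.338, adjusted p 8.45e-11). For HOXB5 the A2780 change exceeded the PEA change by 3.34 (SE 0.368, adjusted p 9.83e-14). For HOXB4 the PEA minus PEO difference was -2.22 (SE 0.264, adjusted p 6.57e-10) and for HOXB2 -2.20 (SE 0.272, adjusted p 1.61e-09). Both starts fell from PEA1 to PEA2 and rose from PEO1 to PEO4. The windows within 1 Mb of HOXB moved the same way, at medians of -1.07 in the PEA and 0.48 in the PEO pair. With bin medians removed the HOXB2 change in the PEA pair turned positive.

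Across all 6 lines, a window was called when its line means spanned more than 2 on the log2 scale with an adjusted p of limma's F test below 0.001. Of 81 HOX windows tested 49 (60.5%) were called against a background of 71.4%, so HOX windows did not differ between the lines more often than other windows. By cluster the counts were 24 of 36 in HOXB, 10 of 16 in HOXC, 8 of 14 in HOXD and 7 of 15 in HOXA.

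HOX proteins bind DNA with cofactors of the PBX, MEIS and PKNOX families, and all 9 of these genes had their start window in the table. In the PEO pair 3 of 9 were higher in PEO4 by the wider rule against a background of 9.63%, PBX2 (1.72), PBX4 (1.85) and PKNOX1 (1.14). MEIS2 was called lower, from 9.48 to 2.20 FPKM (-2.04, adjusted p 2.6e-13), against a background of 5.78%. In the other pairs 0 of 8 tested cofactors passed the wider rule in either direction. The backgrounds were 11.4% higher and 1.1% lower in CP70, and 29.7% higher and 9.27% lower in PEA2.

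Of 15 regulators of HOX clusters 12 had a start window in the table, the exceptions being CDX1, CDX2 and CDX4. RARB, a retinoic acid receptor, was called higher in CP70, from 0.575, 1.22 and 0.645 FPKM in A2780 to 5.38, 2.93 and 3.31 FPKM in CP70 (2.14, adjusted p 5.76e-15), and was lower in PEO4 (-1.15, adjusted p 1.14e-10). The demethylase KDM6B was higher in CP70 (1.06, adjusted p 0.000671) and RARA higher in PEO4 (1.26, adjusted p 0.000476), both by the wider rule. By that rule 2 of 12 regulators, RARB included, were higher in CP70 against a background of 11.4%. In PEO4 1 of 12 was higher against 9.63% and 1 lower against 23.6%. In the PEA pair 0 of 12 passed the wider rule, against backgrounds of 29.7% higher and 9.27% lower. Among the 12 were the Polycomb genes EZH2 (0.88, adjusted p 0.000769), SUZ12 (-0.99, adjusted p 8.9e-05), EZH1 (-0.93, adjusted p 0.000445) and EED (-0.13, adjusted p 0.629). All had a change below 1 in size.

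Of 16 noncoding and EVX genes inside or beside the clusters 6 had a start window in the table. HAGLR and HOXC-AS1 share theirs with HOXD1 and HOXC9. HOXB-AS1 followed its neighbour HOXB2, at 3.25 FPKM in PEO1 and 6.24 FPKM in PEO4 (0.93, adjusted p 4.88e-06) and 2.01 against 1.1 FPKM in the PEA pair (-0.83, adjusted p 0.00185). HOTAIRM1, at the anterior end of HOXA, had 2.44 to 3.29 FPKM in the PEA and PEO lines and 0.591 FPKM in A2780. HOXD-AS2 was highest in PEA2 (3.01 FPKM) and lowest in PEO4 (0.523 FPKM), and MIR196B was highest in the PEA lines (2.96 and 3.06 FPKM). ATAC-seq reads carry no strand, so a window over a sense and an antisense start cannot be assigned to either.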

How the data were processed

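The authors sequenced paired-end ATAC-seq libraries of 6 ovarian cancer cell lines in triplicate. Per the labels and the study's methods, the authors removed duplicates with Picard, mapped reads to hg19 with Bowtie2, kept those with a single place, dropped blacklisted and mitochondrial reads, and counted reads in 1 kb windows with featureCounts. Whether read ends were shifted for the transposase is not said, tool versions are not given in the sources used here, and uniquely aligning reads leave repeats uncovered. The deposited values are FPKM from edgeR's rpkm function, which equal RPM at this window length. Columns were matched to samples by line name and replicate number in the labels.

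Whole reads were recovered from the deposited FPKM for 100.0% of values (tolerance 0.02 reads). Intervals were not computed, and read numbers cover counting error only, since reads carry no molecular identifiers. limma 3.58.1 (R 4.3.3, trend) was fitted to log2(FPKM + 0.1) over all windows with a mean above 1 FPKM, with Benjamini-Hochberg adjustment over all of them, within each pair, between pairs and over the 6 lines. The study's voom weights need counts and were replaced by this fit. edgeR 4.0.16 (quasi-likelihood, TMM) was run on the recovered reads as an alternative and called 332, 8155 and 6637 windows for A2780, PEA and PEO, against 296, 8374 and 6594 by limma. The fitting code was tested on simulated data. Genes came from GENCODE release 44 lifted to GRCh37, and sequences from that genome.

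Values in every library were given for the 2 start windows of each cluster with the widest range over line means, the start window with the highest mean, start windows called in a pair, and the 2 called windows with the largest change per pair and direction. Members and lists were chosen with earlier results of these data known. Alternatives were other pseudocounts, filters, scalings, bin medians removed, thresholds, gene extensions of 0 and 10 kb, edgeR, each library left out and a replicate block. Start windows of MIR10A and PECAM1 were not used here.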

Additional observations from a re-analysis of the deposited data

Results flagged for a closer look

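Each case below is a difference between 2 pairs in the log2 change from the sensitive to the resistant line (log2(FPKM + 0.1) scale). It was tested with limma over the 12 libraries of both pairs and exceeded 2 in size with an adjusted p below 0.001. The windows are the named ones, picked by calls, range or level in the same libraries, which favours such differences.

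At HOXC10 the change was more positive by 2.98 (SE 0.407, adjusted p 1.8e-08) in the PEA than in the PEO pair and by 3.99 (SE 0.354, adjusted p 8.79e-11) in the A2780 than in the PEO pair. At HOXC9 the same differences were 2.82 (SE 0.374, adjusted p 8.74e-09) and 3.83 (SE 0.338, adjusted p 8.45e-11). Both starts fell in PEO4 to 11 reads or fewer per library.

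The windows within 1 Mb of HOXB had median changes of -1.07 in the PEA, 0.48 in the PEO and 0.72 in the A2780 pair. At HOXB2 the PEA minus PEO difference was -2.20 (SE 0.272, adjusted p 1.61e-09) and at HOXB4 -2.22 (SE 0.264, adjusted p 6.57e-10). At HOXB4 the A2780 minus PEA difference was 2.44 (SE 0.35, adjusted p 2.15e-09). In the HOXB3 exon window 10630 bases upstream of the HOXB2 start, the PEA minus PEO difference was -3.06 (SE 0.328, adjusted p 4.07e-11) and the A2780 minus PEA difference 3.74 (SE 0.42, adjusted p 2.29e-13). At HOXB5 the A2780 minus PEA difference was 3.34 (SE 0.368, adjusted p 9.83e-14). In the HOXB8 exon window 1422 bases upstream of the HOXB7 start, the A2780 minus PEA difference was 3.53 (SE 0.351, adjusted p 7.74e-16) and the A2780 minus PEO difference 2.97 (SE 0.32, adjusted p 4.75e-09).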

How the results depend on the processing

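The counts of called HOX windows (A2780 0, PEA 3, PEO 4) kept within 1.5 times under most alternatives, and the exceptions follow. In the PEA pair 0 were called with a pseudocount of 0.5, with a pseudocount of 1 and with 5 Mb bin medians removed, and 8 with quantile normalization. In the PEO pair 0 were called with a pseudocount of 1. The wider thresholds gave 27, 21 and 21 for A2780, PEA and PEO, 43 for PEA against PEO (main 15), 40 for A2780 against PEA (main 18), 29 for A2780 against PEO (main 14) and 78 over the 6 lines (main 49). A pseudocount of 0.5 gave 4, 9, 9 and 21 for these last 4 comparisons. Median centring gave 26 for PEA against PEO and 8 for A2780 against PEO, and quantile normalization 25 and 7, with the split of PEA against PEO at 1 and 24. Leaving out each library gave 0 for A2780, 2 to 3 for PEA, 3 to 5 for PEO, 13 to 16 for PEA against PEO, 13 to 21 for A2780 against PEA, 14 to 16 for A2780 against PEO and 45 to 52 over the 6 lines. Of 136 log2 changes of named windows under 4 alternatives, 100 kept their direction and side of the threshold, 26 lost it, 4 gained it and 6 turned, all with bin medians removed: HOXC9 in the A2780 pair at -0.11, HOXB2 at -0.04 in the A2780 and 0.24 in the PEA pair, HOXD8 in the PEA pair at -0.02, and HOXD1 at -0.05 in the PEA and -0.20 in the PEO pair. Of 48 cluster medians 29 moved by more than the spread between replicates and 4 turned, all with bin medians removed (HOXC to -0.01 for A2780 and 0.48 for PEA, HOXD to -0.13 for PEA and -0.42 for PEO), and 14 of 18 counts of open starts moved. The cause was not tested. A replicate block left all counts as they were (0, 3, 4, 15, 18, 14 and 49), and replicate numbers did not pair the libraries (correlations of deviations -0.412 to 0.0446, and in the PEO pair alone every library matched its own number best). Low read numbers limit PEO1 most, where 1 read was worth 0.0873 to 0.111 FPKM.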
